A study of Mus musculus with 29 samples.

Results

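C/EBPβ binding was compared between livers of prednisolone-treated and untreated wild-type (WT) mice, both collected at 6am. The comparison rested on 2 ChIP-seq peak lists: 21941 peaks after prednisolone and 21644 peaks at 6am, so 43585 of the 107997 peaks in the 9 ChIP-seq lists of the series. A prednisolone peak was called kept where it overlapped a 6am peak by at least 1 bp and new where it did not, and a 6am peak without a prednisolone partner was called lost. All animals of both groups were 12-week-old GR+/+ males, littermates of mice with the GRdim receptor mutation, back-crossed to BALB/c and kept under a 12 h light cycle. Prednisolone, a synthetic glucocorticoid, was given for 24 h from subcutaneous pellets at 12 mg/kg, and the untreated group carries the label of no treatment. The series also holds a WT C/EBPβ list of 6pm, GR ChIP-seq and ChIP-exo lists of WT and GRdim livers, and samples for RNA polymerase II and input that were not analysed here.

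C/EBPβ is a leucine-zipper transcription factor that binds DNA as a dimer with itself or with other C/EBP proteins. In hepatocytes it is known for its part in the acute-phase response and in gluconeogenesis, and its binding is known to help keep chromatin open for other factors. The glucocorticoid receptor (GR), the nuclear receptor that binds prednisolone and the natural hormone corticosterone, often binds in liver close to C/EBP factors.

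Each list was 1 pool of 2 replicates, so the error between replicates is unknown and differences carry no p-value. The 95% intervals cover the counting of peaks only. Every peak was 200 bp wide and carried a score assigned by the authors, whose unit is not stated in the labels. The lowest score was 2.01 in both lists, so a peak missing from a list can be a weakly bound one. The ChIP comes from whole liver tissue, where binding in more cells and stronger binding per cell cannot be told apart, and the tissue label was not checked against marker genes because no gene annotation of mm9 was used. Positions below are in the mm9 build, counted from 1.

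Most C/EBPβ regions stood in both lists. Of the prednisolone peaks, 4886 were new (22.3%, Wilson interval 21.7 to 22.8), and of the 6am peaks, 4589 were lost (21.2%, 20.7 to 21.8). The other 17055 peaks of each list paired with exactly 1 peak of the other. Their centres lay a median of 10 bp apart, and 95% of pairs lay within 43 bp, so the summits of a pair nearly coincided.

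New and lost peaks were mostly weak. New peaks had a median score of 2.59, with quartiles of 2.23 and 3.20, within a prednisolone list whose kept peaks had a median of 4.17. Lost peaks had a median score of 2.45, with quartiles of 2.21 and 2.85, within a 6am list whose kept peaks had a median of 4.30. In the lowest-scoring decile of each list, 56.1% (54.0 to 58.1) of the prednisolone peaks were new and 57.8% (55.7 to 59.8) of the 6am peaks were lost. Both lists therefore turned over mainly near their lower end.

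At the strong end the 2 lists differed. In the highest-scoring 50% of each list, 776 of 10970 prednisolone peaks were new (7.07%, 6.61 to 7.57), against 323 of 10822 6am peaks that were lost (2.98%, 2.68 to 3.32). In the fourth decile, 10.0% (8.84 to 11.4) of the prednisolone peaks were new and 3.14% (2.49 to 3.96) of the 6am peaks were lost. In the top decile, with scores of at least 7.86 after prednisolone and 8.52 at 6am, 31 peaks were new and 9 were lost. In the eighth decile 36.6% were new and 41.5% were lost, and in the ninth 44.2% and 51.0%, so there the order was the other way round.

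**Figure D1:**
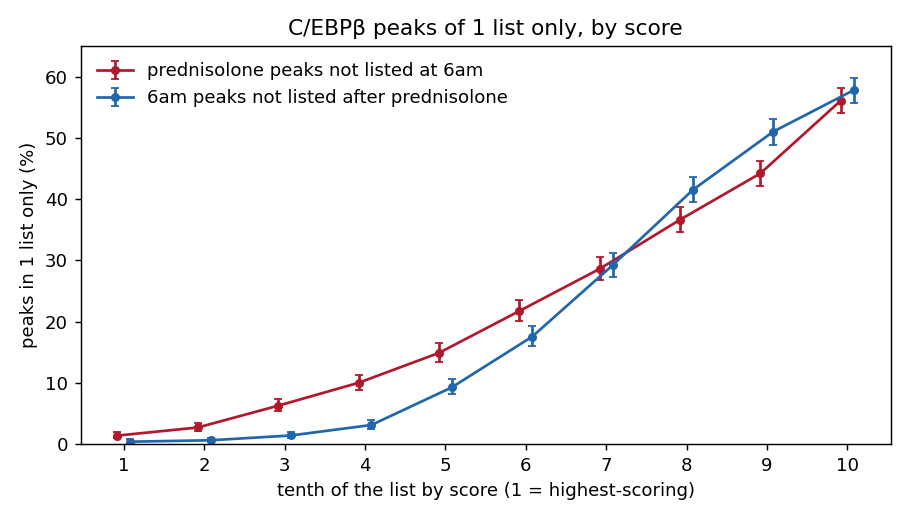
Share of C/EBPβ peaks found in 1 list only (y axis, percent) in each decile of its own list by score (x axis, highest-scoring first), for prednisolone peaks (red) and 6am peaks (blue), with Wilson 95% intervals that count peaks only. The red points lie above the blue ones in the 6 highest-scoring deciles, for example at 10.0% against 3.14% in the fourth, and below them in the lowest 4, with overlapping intervals in the seventh at 28.6% and 29.2% and in the last decile at 56.1% and 57.8%.

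Most of the strongest new peaks had no close neighbour in the other list, whereas most of the strongest lost peaks had one. Within the highest-scoring quintile, 13 of the 91 new peaks (14.3%, 8.54 to 22.9) had a 6am peak centred within 500 bp, against 20 of the 23 lost peaks (87.0%, 67.9 to 95.5) with a prednisolone peak that close. In the top decile, 26 of 2194 prednisolone peaks had no 6am C/EBPβ peak within 500 bp (1.19%, 0.810 to 1.73). None of 2164 6am peaks of the top decile lacked a prednisolone peak within 500 bp, with a Wilson interval of 0 to 0.177%. Over whole lists such neighbours were uncommon, at 5.03% (4.46 to 5.68) of new and 6.995% (6.29 to 7.77) of lost peaks. Within 1000 bp the shares were 12.2% and 16.0%. With neighbours within 1000 bp left out, 658 of the higher-scoring 50% of prednisolone peaks were new (6.00%, 5.57 to 6.46) and 201 of the higher-scoring 50% of 6am peaks were lost (1.86%, 1.62 to 2.13).

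The 5 highest-scoring new peaks illustrate the range. The first, at chr7:147818977-147819176, scored 11.56 after prednisolone and stood in place 386 of that list. Its nearest 6am C/EBPβ peak was 2428 bp away, and GR was listed there after prednisolone (score 4.17) but not at 6am. The second, at chr1:82199352-82199551, scored 10.95, its nearest 6am C/EBPβ peak was 13849 bp away, and GR overlapped it after prednisolone with a score of 2.63. The third, at chr3:137769979-137770178, also scored 10.95 and stood alone: the nearest 6am C/EBPβ peak was 22231 bp away, the nearest prednisolone GR peak 120134 bp away, and no ChIP-exo border of GR lay within 100 bp in either library.

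The fourth, at chr3:116653568-116653767, scored 10.84 and lay 208 bp from the highest-scoring lost peak, at chr3:116653776-116653975, which scored 11.05 at 6am. The 2 intervals lie side by side, and a GR peak with a score of 2.63 overlapped both intervals in both states. Its centre lay 43 and 33 bp from the centre of the new peak after prednisolone and at 6am, and 165 and 175 bp from that of the lost peak. The fifth, at chr1:133083679-133083878, scored 10.77, with its nearest 6am C/EBPβ peak 2092 bp and its nearest prednisolone GR peak 103330 bp away.

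The 4 next lost peaks repeated that pattern of close neighbours. They lay at chr11:35776958-35777157, chr12:105227328-105227527, chr8:36274936-36275135 and chr4:99602852-99603051. Their 6am scores were 10.33, 10.29, 9.57 and 9.36, and a prednisolone C/EBPβ peak was centred 217, 261, 318 and 336 bp away. All 5 of these lost regions were listed for C/EBPβ at 6pm, with scores between 8.88 and 11.37.

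Among the new peaks with no prednisolone GR peak within 10 kb, the highest-scoring after the chromosome 3 and chromosome 1 regions lay at chr11:28243587-28243786, chr10:95761344-95761543 and chr10:17196588-17196787. They scored 10.48, 10.27 and 10.20, and their nearest 6am C/EBPβ peaks were 21931, 65721 and 68864 bp away. The first of these had a ChIP-exo border signal of 0.805 RPM (tags scaled to library size by the authors) after prednisolone and no listed border at 6am, although its nearest GR ChIP-seq peak of prednisolone was 341995 bp away. Among new peaks with GR within 10 kb, the fourth and the fifth were at chr8:47555569-47555768 and chr1:37403189-37403388, with scores of 9.80 and 9.41. GR lay 8618 and 8861 bp from them, and 6am C/EBPβ peaks lay 315 and 997 bp from them.

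The highest-scoring lost peaks with no 6am GR peak within 10 kb were, after the chromosome 4 region, chr2:63908096-63908295, chr8:89290901-89291100, chr10:124758841-124759040 and chr7:87531194-87531393. They scored 9.24, 9.12, 7.88 and 6.91 at 6am, and each had a prednisolone C/EBPβ peak 253 to 367 bp away. With GR within 10 kb, the fifth lost peak was at chr5:136171278-136171477, with a 6am score of 9.28 and a prednisolone peak 263 bp away.

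The 6pm C/EBPβ list was not used to define the groups and was longer than both lists compared, at 26226 peaks. It held the 2 kinds of peak at very different rates. Of the new peaks, 1750 (35.8%, 34.5 to 37.2) were listed for C/EBPβ at 6pm, and of the lost peaks 3698 (80.6%, 79.4 to 81.7). Kept peaks were listed at 6pm in 96.8% of cases, and the whole lists in 83.3% for prednisolone and 93.4% for 6am. The gap held in each quintile of the lists by score: in the highest, 56.0% of 91 new and 91.3% of 23 lost peaks were listed at 6pm, in the middle quintile 39.6% of 804 and 92.1% of 581, and in the lowest 31.8% of 2201 and 73.1% of 2355. The lost peaks thus belonged mostly to both untreated times, while 3136 new peaks were in neither untreated list.

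Among those 3136 peaks of the prednisolone list alone, 210 overlapped a prednisolone GR peak (6.70%, 5.87 to 7.63), and among the 1750 that were also listed at 6pm, 128 did (7.31%, 6.19 to 8.63). GR was listed at 6pm over 3.95% and 20.2% of the same 2 sets. Kept prednisolone peaks overlapped a prednisolone GR peak in 17.1% of cases and a 6pm GR peak in 47.1%. Of the lost peaks listed at 6pm, 20.5% (19.3 to 21.9) overlapped a 6am GR peak and 50.5% (48.9 to 52.1) a 6pm GR peak. Of the 891 lost peaks that the 6pm list lacked, 6.96% (5.47 to 8.82) overlapped a 6am GR peak and 11.7% (9.73 to 13.9) a 6pm GR peak. For kept 6am peaks these shares were 22.2% and 47.2%. When both C/EBPβ lists were reduced to their higher-scoring 50%, the shares at 6pm were 79.5% and 98.2% of new and lost peaks, since new then includes peaks listed at 6am with lower scores.

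Scores are comparable only within a list, so the 17055 kept regions were ranked anew among themselves in each state, as percentiles with 100 for the highest score. The 2 rankings had a Spearman rho of 0.760 over these regions, which share their chromatin and are not independent. The shift in rank, prednisolone minus 6am, had quartiles of -12.1 and 9.89 points and an SD of 20.0 points over regions. The top decile was mostly shared: 1165 regions were in both, which is 68.2% of the prednisolone top decile and 68.7% of the 6am top decile.

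The 5 regions with the highest mean rank barely moved. The region at chr14:76193036-76193235 stood first in both lists, in that of prednisolone together with the next region, with scores of 19.10 after prednisolone and 22.83 at 6am, and held GR in both states with scores of 7.13 and 7.95. The others lay at chr17:84235508-84235707, chr7:71041818-71042017, chr9:21639737-21639936 and chr17:26708411-26708610. Each of the 5 was within the first 10 places of both lists. The chromosome 7 region held the strongest GR signal of the 5, with ChIP-exo borders summing to 96.4 RPM after prednisolone and 72.1 RPM at 6am. The chromosome 9 region held a weak GR peak at 6am (score 2.40) and none after prednisolone.

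Large upward shifts were more frequent than large downward ones. Ranks were higher after prednisolone by over 50 points at 357 regions (2.09%) and lower by over 50 points at 63 regions (0.369%). With a limit of 25 points the counts were 1746 higher (10.2%) and 1472 lower (8.63%), and with 10 points 4227 higher and 4925 lower. Over all kept regions 45.6% ranked higher after prednisolone, so the few large upward shifts stood against many small downward ones.

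**Figure D2:**
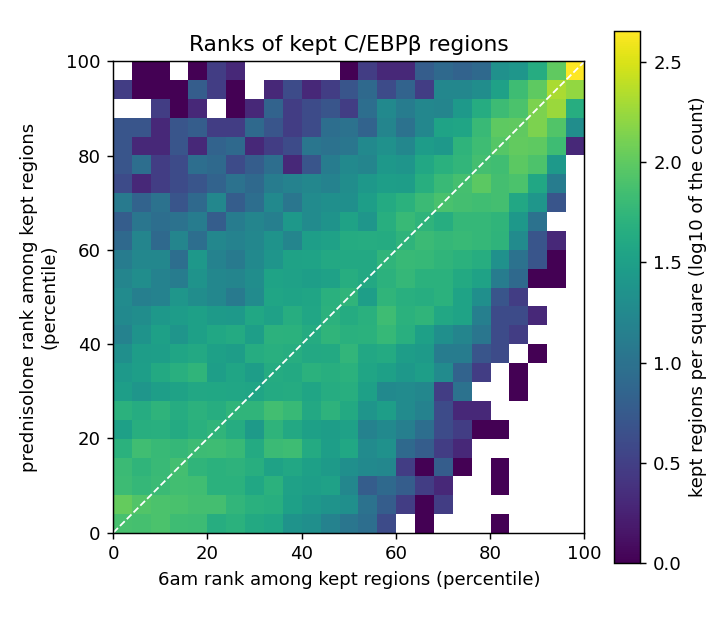
Counts of kept C/EBPβ regions by their percentile rank at 6am (x axis) and after prednisolone (y axis), in squares of 4 by 4 points with colour on a log10 scale; empty squares are white and the dashed line marks equal rank. The counts are highest in the upper right corner, where 1165 regions share the top decile, and regions reach the upper left, where ranks were higher by over 50 points at 357 regions, more often than the lower right, where 63 regions were lower by as much.

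Of the 5 largest upward shifts among regions in the upper 50% of at least 1 list, 4 held a GR peak after prednisolone and none at 6am. The same GR state marked 2.91% of all kept regions and 8.71% of those higher by over 25 points. At chr3:95683087-95683286 the C/EBPβ score was 9.80 after prednisolone and 2.01 at 6am, a shift of 94.1 points. There GR scored 2.21 after prednisolone, and the nearest 6am GR peak was 243061 bp away. At chr1:62099674-62099873 the C/EBPβ scores were 9.59 and 2.09, GR scored 10.58 after prednisolone, and the ChIP-exo borders summed to 15.3 RPM after prednisolone and 0.377 RPM at 6am.

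At chr4:120750091-120750290 the C/EBPβ scores were 11.56 after prednisolone and 2.37 at 6am. GR scored 9.72 after prednisolone, and the borders summed to 10.6 RPM after prednisolone and 0.575 RPM at 6am. At chr6:115374570-115374769 the C/EBPβ scores were 9.51 and 2.05, and GR scored 2.40 after prednisolone. The exception lay at chr4:109157247-109157446, with C/EBPβ scores of 10.95 and 2.21, no ChIP-exo border in either library and the nearest prednisolone GR peak 371620 bp away.

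The 5 largest downward shifts lay at chr15:66740993-66741192, chr5:99691743-99691942, chr15:75232253-75232452, chr10:23474123-23474322 and chr18:8930436-8930635. Their C/EBPβ scores were 2.12, 2.33, 2.51, 2.15 and 2.15 after prednisolone, against 7.39, 7.72, 7.80, 6.07 and 5.95 at 6am. None overlapped a GR peak after prednisolone, and 1 of them, on chromosome 5, did at 6am with a score of 2.97. Of all kept regions, 17.1% overlapped a GR peak after prednisolone and 22.2% at 6am. Overlap was measured from the centre of the prednisolone C/EBPβ peak. At the second chromosome 15 region a 6am GR peak was centred 206 bp from it, and its overlap with the 6am C/EBPβ peak is not given here. ChIP-exo borders of 6am were listed at all 5, summing to 0.197 to 1.40 RPM, and those of prednisolone at 1. Over all kept regions, 40.5% held a border of 6am and 37.7% a border of prednisolone. The 6am summits of the chromosome 5 region and of the second chromosome 15 region lay 87 and 178 bp from those after prednisolone, further than the 43 bp that held 95% of pairs.

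Rank shifts followed the GR lists. At the 496 kept regions where GR was listed after prednisolone only, the C/EBPβ rank was higher by a median of 10.5 points (95% interval of the median 8.13 to 13.3) and 78.6% of regions moved up, against 45.6% of all kept regions. At the 1361 regions where GR was listed at 6am only, the median was -11.4 points (-12.7 to -10.4) and 14.9% moved up. At the 2422 regions with GR in both lists it was -2.31 points (-2.79 to -1.90), and at the 12776 regions with GR in neither it was -0.191 points (-0.478 to 0.106). Shifts of more than 25 points upward marked 30.6% of the regions with GR after prednisolone only and 0.514% of those with GR at 6am only, and shifts of more than 25 points downward marked 0.806% and 21.8%.

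**Figure D3:**
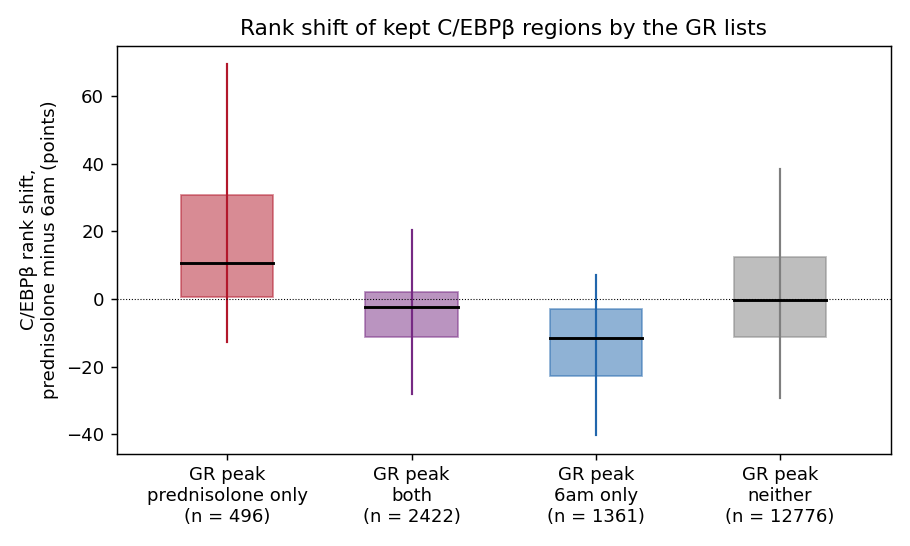
Shift in C/EBPβ rank at kept regions (y axis, points, prednisolone minus 6am) by whether a GR peak of WT overlapped after prednisolone only, in both states, at 6am only or in neither (x axis). Black lines are medians, boxes the quartiles and thin lines the 5th to 95th percentiles over regions; the medians are 10.5, -2.31, -11.4 and -0.191 points.

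The medians for GR in 1 list only kept their signs at each level of rank. Within 5 equal parts of the kept regions by mean rank, the median shift with GR after prednisolone only lay between 4.17 and 39.6 points, and the interval included 0 in the lowest part, which held 24 regions. With GR at 6am only it lay between -23.7 and -3.73 points. With GR in neither list the sign varied, from -0.877 to 1.85 points. The GR list of prednisolone was shorter than that of 6am, at 4304 and 5781 peaks. With both reduced to the same length, the medians were 5.31 points for GR after prednisolone only and -13.2 points for GR at 6am only.

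A stronger GR peak went with a larger C/EBPβ difference. The 740 prednisolone C/EBPβ peaks over a GR peak of that state only were split into 4 equal groups by GR score. In the quartile group with the highest GR scores, 3.23 to 15.09, 127 of 185 C/EBPβ peaks were new (68.6%, 61.6 to 74.9), and the 58 kept ones were higher in rank by a median of 30.9 points. In the quartile group with the lowest GR scores, 2.03 to 2.21, 31 of 185 were new (16.8%, 12.1 to 22.8), and the kept ones had a median shift of 4.91 points. All of these shares stand beside the 22.3% of all prednisolone peaks that were new.

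For the 1934 6am C/EBPβ peaks over a GR peak of 6am only, the gradient was shallower. In the quartile group with the highest GR scores, 33.1% (29.0 to 37.4) of 484 were lost and the kept ones had a median shift of -14.2 points. In the lowest quartile group, 23.8% (20.2 to 27.8) of 483 were lost, against 21.2% of all 6am peaks, with a median shift of -9.59 points for the kept ones.

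Where GR was listed in both states, the C/EBPβ shift went with the GR shift. At those 2422 regions the GR scores were ranked in the same way, and the 2 shifts had a Spearman rho of 0.469 across regions, which come from 2 pooled libraries of each factor. In the quartile group of regions where the GR rank was lowest relative to 6am, the median C/EBPβ shift was -10.03 points, and in the quartile group where it was highest it was 1.12 points. ChIP-exo maps borders of GR-bound DNA by exonuclease digestion, and it gave the same order. At the 4836 kept regions with GR borders in both libraries, rho with the log2 ratio of border RPM was 0.432. The median C/EBPβ shift was 2.59 points in the quartile group with the highest ratio, median log2 1.07, and -10.1 points in the quartile group with the lowest, median log2 -1.76. Library sizes were 54.7 M tags after prednisolone and 55.7 M tags at 6am.

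Most large shifts nevertheless lay at regions with no GR peak in either list. Of the 1746 regions higher by over 25 points, 1506 had GR in neither list (86.3%, 84.6 to 87.8), as did 997 of the 1472 regions lower by over 25 points (67.7%, 65.3 to 70.1) and 74.9% of all kept regions. GR listed after prednisolone only marked 8.71% of the upward set and 2.91% of all kept regions, and GR at 6am only marked 20.2% of the downward set and 7.98% of all.

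ChIP-exo borders differed even at the regions without a GR peak. Among the 1506 upward regions with GR in neither list, 24.4% (22.3 to 26.7) held a border of the prednisolone library and 6.64% (5.49 to 8.01) a border of the 6am library. Among the 997 downward ones, 13.4% (11.5 to 15.7) held a border after prednisolone and 33.0% (30.2 to 36.0) at 6am. Among the 10273 regions with GR in neither list that moved by at most 25 points, the shares were 21.5% and 24.3%. At 6pm, GR was listed at 13.9% of the upward, 39.1% of the downward and 31.9% of those middle regions.

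The distance to the nearest GR peak of the same condition was compared for new, lost and kept peaks. New peaks overlapped a prednisolone GR peak in 6.92% of cases and kept peaks of that list in 17.1%, a difference of -10.2 points (Newcombe interval -11.1 to -9.26), with 14.8% over the whole list. Lost peaks overlapped a 6am GR peak in 17.9% of cases and kept peaks of that list in 22.2%, a difference of -4.32 points (-5.57 to -3.03), with 21.3% over the whole list. Within 10 kb of GR the differences, likewise pooled over scores, were -6.04 points for new and -2.25 points for lost peaks. With both C/EBPβ lists reduced to their higher-scoring 50% before matching, the difference for lost peaks was -2.11 points, with an interval of -4.18 to 0.00124. Lost then includes peaks listed after prednisolone with lower scores. It covers 21.6% of the reduced 6am list, against 2.98% of the same peaks when matched to the whole prednisolone list.

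The median distance between centres was 61.9 kb (56.4 to 66.3) for new and 49.9 kb (47.3 to 52.4) for kept peaks of the prednisolone list, and 29.2 kb (25.9 to 32.9) for lost and 25.8 kb (24.2 to 27.2) for kept peaks of the 6am list. The 6am distances are measured to a longer GR list: with GR lists of equal length the median for lost peaks was 55.0 kb. With both C/EBPβ lists reduced to their higher-scoring 50% before matching, it was 12.1 kb. Lost peaks then include some that were listed after prednisolone with lower scores.

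**Figure D4:**
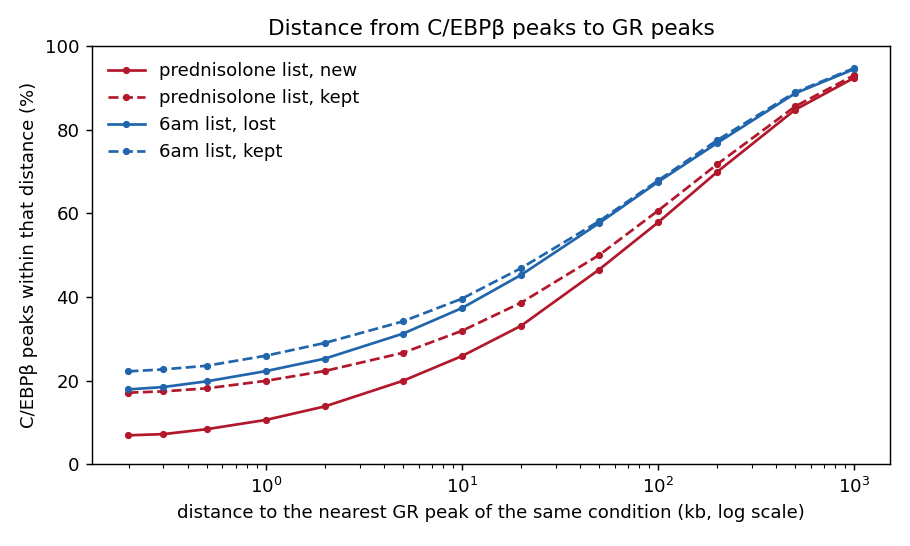
Share of C/EBPβ peaks (y axis, percent) with a GR peak of the same condition within a given distance of their centre (x axis, kb on a log scale), for new (solid red) and kept (dashed red) prednisolone peaks and for lost (solid blue) and kept (dashed blue) 6am peaks. The new peaks lie lowest at short distances, at 25.9% within 10 kb against 31.9% of kept prednisolone peaks, and lost and kept 6am peaks lie closer together, at 37.4% and 39.6%.

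These pooled differences compare peaks of different strength: new and lost peaks had lower scores, and kept peaks of lower score overlapped GR less often. Within quintiles of the 6am list by score, lost peaks overlapped GR more often than kept ones in each quintile but the highest. The shares were 36.4% of 99 lost and 23.5% of kept peaks in the second quintile, 32.9% of 581 and 16.0% in the third, 19.3% of 1531 and 8.72% in the fourth, and 12.3% of 2355 and 4.61% in the lowest. The differences were 12.8, 16.9, 10.6 and 7.70 points, and every interval excluded 0. In the highest quintile it was -8.42 points (-24.5 to 12.0) over 23 lost peaks, 20 of which had a close neighbour. Below the highest quintile, lost C/EBPβ peaks thus lay at GR more often than kept ones of similar score, opposite to the pooled comparison. Within 10 kb of GR, lost peaks exceeded kept ones by 23.9, 18.1, 12.1 and 8.82 points from the second to the lowest quintile. In the highest quintile that difference was 11.3 points (-9.22 to 26.2).

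Within quintiles of the prednisolone list the difference was small and its sign varied. New peaks overlapped GR in 38.5% of 91 cases and kept peaks in 36.4% in the highest quintile, a difference of 2.09 points (-7.36 to 12.5). In the second quintile the shares were 20.1% of 358 new and 15.0% of kept peaks, a difference of 5.07 points (1.08 to 9.66). In the other quintiles the difference was -1.28 (-3.41 to 1.16), -2.30 (-3.76 to -0.734) and -2.63 points (-3.92 to -1.36). Within 10 kb of GR, new peaks exceeded kept peaks by 10.1 points (4.92 to 15.4) in the second quintile and by 5.14 points (1.67 to 8.74) in the third, while in the lowest quintile both shares were 20.2% to 20.3%.

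The share of new C/EBPβ peaks differed with the state of the nearest GR peak. GR peaks were themselves called new, kept or lost in the same way. Of the prednisolone C/EBPβ peaks that overlapped a new GR peak, 244 of 736 were new (33.2%, 29.8 to 36.6), against 94 of 2520 over a kept GR peak (3.73%, 3.06 to 4.54). The share of new C/EBPβ peaks was also higher around new GR peaks without overlap, at 39.1% (31.7 to 47.0) of 151 within 1 kb and 35.5% (31.9 to 39.3) of 639 between 1 and 10 kb. Around kept GR peaks the same distances gave 23.6% (20.1 to 27.4) of 513 and 24.2% (22.4 to 26.0) of 2147. Between 10 and 100 kb the shares were 27.2% near new and 23.1% near kept GR peaks, and beyond 100 kb they were 22.9% and 23.7%, close to the 22.3% of the whole list.

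The share of lost C/EBPβ peaks likewise differed with the state of the nearest GR peak. Of the 6am C/EBPβ peaks that overlapped a lost GR peak, 568 of 1927 were lost (29.5%, 27.5 to 31.6), against 253 of 2682 over a kept GR peak (9.43%, 8.38 to 10.6). Within 1 kb without overlap the shares were 28.4% (24.2 to 32.9) of 409 near lost and 19.8% (16.3 to 23.8) of 430 near kept GR peaks. Between 1 and 10 kb they were 24.3% (22.1 to 26.6) and 21.7% (19.7 to 23.8), with intervals that overlap. Between 10 and 100 kb they were 23.9% (22.4 to 25.5) near lost and 20.9% (19.6 to 22.4) near kept GR peaks, and beyond 100 kb they were 20.8% and 21.8%.

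**Figure D5:**
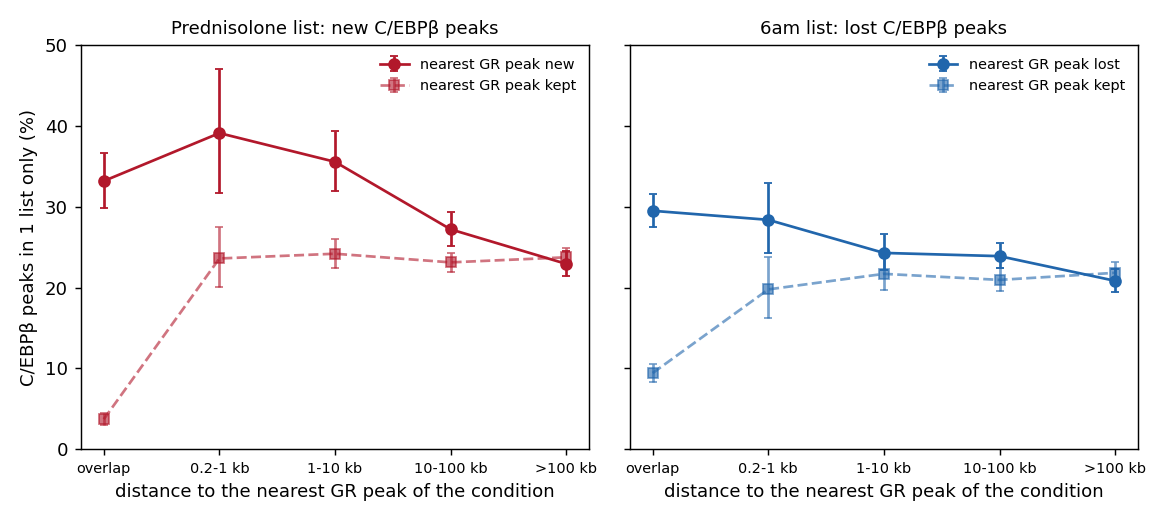
Share of C/EBPβ peaks in 1 list only (y axis, percent) by distance to the nearest GR peak of the same condition (x axis), for prednisolone peaks (left) and 6am peaks (right). Circles with solid lines stand for peaks whose nearest GR peak was new (left) or lost (right), squares with dashed lines for a kept GR peak, with Wilson 95% intervals that count peaks only; at overlap the values are 33.2% and 3.73% on the left and 29.5% and 9.43% on the right, and they meet beyond 100 kb.

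At overlap with GR, the same contrast appeared above and below the middle score of each list. In the lower-scoring 50%, 73.5% (66.7 to 79.3) of 185 prednisolone peaks over a new GR peak were new, against 10.7% (8.35 to 13.6) of 543 over a kept one. In the higher-scoring 50% the shares were 19.6% (16.5 to 23.1) of 551 and 1.82% (1.32 to 2.51) of 1977. Of 6am peaks in the lower-scoring 50%, 66.9% (63.5 to 70.2) of 735 over a lost GR peak were lost, against 40.1% (36.0 to 44.3) of 536 over a kept one. In the higher-scoring 50% the shares were 6.38% (5.12 to 7.91) of 1192 and 1.77% (1.29 to 2.42) of 2146. Without overlap, these higher-scoring 6am peaks did not show the contrast clearly. Within 1 kb, 5.88% were lost near lost and 6.41% near kept GR peaks. Between 1 and 10 kb the shares were 4.63% and 3.37%, and between 10 and 100 kb 2.31% and 2.28%.

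Most one-list peaks, like most C/EBPβ peaks, had GR in neither list. Of the 4886 new C/EBPβ peaks, 244 lay over GR listed after prednisolone only, 94 over GR listed in both states, 28 over GR listed at 6am only and 4520 (92.5%, 91.7 to 93.2) over none, against 78.8% of all prednisolone peaks. Of the 4589 lost peaks, 18 lay over GR listed after prednisolone only, 250 over GR in both states, 571 over GR at 6am only and 3750 (81.7%, 80.6 to 82.8) over none, against 76.3% of all 6am peaks.

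ChIP-exo borders of GR gave a second measure at one-list peaks. A border of the same condition lay within 100 bp of the centre of 17.5% (16.5 to 18.6) of new and 37.7% (36.97 to 38.4) of kept peaks of the prednisolone list, a difference of -20.2 points (-21.5 to -18.9). At 6am, 41.1% (39.7 to 42.6) of lost and 40.7% (39.98 to 41.5) of kept peaks held one, a difference of 0.405 points (-1.19 to 2.01). New and lost peaks had lower scores than kept ones, and border shares were not compared within score quintiles. These differences therefore do not show how peaks of similar score compare. Of the new peaks without a prednisolone GR peak, 11.7% (10.8 to 12.6) held a border of prednisolone and 5.45% (4.83 to 6.15) a border of 6am, against 26.0% and 29.6% of the kept peaks without one. Of the lost peaks without a 6am GR peak, 11.4% (10.4 to 12.4) held a border after prednisolone and 29.3% (27.8 to 30.7) at 6am, against 23.9% and 24.7% of the kept peaks without one.

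New C/EBPβ peaks that coincided with a prednisolone GR peak had a higher median border signal than kept ones. Of these 338 peaks, 96.2% (93.5 to 97.7) held prednisolone borders, with a median sum of 2.58 RPM. The 2753 kept peaks with both had a median of 1.34 RPM. A 6am border lay at 56.8% (51.5 to 62.0) of the 338, with a median of 0.852 RPM where present. Of the 821 lost peaks with a 6am GR peak, 65.4% (62.1 to 68.6) held a border after prednisolone, with a median of 0.512 RPM, and 95.5% (93.8 to 96.7) at 6am, with a median of 1.24 RPM. The kept 6am peaks with a 6am GR peak had a higher median at 6am than the lost ones, 1.43 RPM where a border was present.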

How the data were processed

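The authors deposited 1 ChIP-seq list per condition from pooled replicates, per the labels. The submitters' processing notes name Bowtie, HOMER and mm9, without versions, roles or a peak threshold. Each deposited list gives a score per 200 bp peak, and the score is the authors'. Scores served for ranks and filters inside one list. The deposited ChIP-exo files give a count of tags per 10 bp border and the authors' RPM, per the file headers. The tag count divided by the RPM gives the library size. Mitochondrial borders were left out.

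Peaks were matched to the nearest centre, with at least 1 bp of overlap. Distances run between centres. Tied scores took their mean rank, and ties at the edges of deciles, quintiles and quartile groups were split by file order. Shares carry Wilson and differences Newcombe 95% intervals, and medians carry an interval from binomial order statistics. These cover the counting of peaks only. No p-value was computed, since every condition was 1 pooled list of unknown ChIP-seq depth.

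The regions named were the 5 highest-scoring new and lost peaks, the 5 kept regions of highest mean rank, the 5 largest rank shifts each way among regions in the upper 50% of a list and the 5 highest-scoring new and lost peaks with and without GR within 10 kb. The groups and lists were chosen with earlier results of these data known. Gene and motif lists were planned, but need mm9 annotation and sequence, which were not used here. The code was tested on simulated data. The software was matplotlib 3.10.9, scipy 1.17.1, pandas 2.3.3 and numpy 2.4.6 under Python 3.11.15.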

Additional observations from a re-analysis of the deposited data

How the results depend on the processing

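Of 78 alternative values, 36 stayed near the reported value, 36 moved further and 6 took the opposite sign to a reported value whose interval excluded 0. Those 6 are among the GR shares within score quintiles, highest first: new minus kept was 2.09, 5.07, -1.28, -2.30 and -2.63 points, and lost minus kept was -8.42, 12.8, 16.9, 10.6 and 7.70 points, against pooled values of -10.2 and -4.32. With centres within 1000 bp counted as shared, 19.5% of prednisolone peaks were new and 17.8% of 6am peaks were lost, their median distances to GR were 68.5 and 36.0 kb, 37.6% and 82.8% were listed at 6pm, and the ChIP-exo difference for lost peaks was -1.30 points. That difference, reported as 0.405 with an interval that includes 0, was also negative with borders within 60 bp (-0.443). It was -1.07 with the C/EBPβ lists reduced to their higher-scoring 50% before matching, so its sign is not settled. In those reduced lists 22.7% of peaks were called new and 21.6% lost, since both classes then include peaks listed in the other state with lower scores. For these wider classes the GR differences were -13.1 and -2.11 points, and the distances 42.8 and 12.1 kb. Their shares at 6pm were 79.5% and 98.2%, and the ChIP-exo difference for new peaks was -18.5 points. With GR within 10 kb the GR differences, pooled over scores, were -6.04 and -2.25 points. With GR lists of equal length the distance of lost peaks was 55.0 kb, and the median rank shifts were 5.31 points with GR after prednisolone only and -13.2 points with GR at 6am only. Within quintiles of kept regions by mean rank, lowest first, those shifts were 7.08, 31.2, 39.6, 14.4 and 4.17 points and, leaving out the fourth, -15.9, -23.7, -18.1 and -3.73 points. An overlap of 100 bp gave 79.0% of lost peaks at 6pm, borders within 60 bp gave a ChIP-exo difference of -18.6 points for new peaks, and neighbours within 1000 bp were found for 12.2% of new and 16.0% of lost peaks. The cause was not tested. GR lists of equal length for the rank shift and the quintiles of mean rank were added after seeing the data. No paired analysis was possible because each list is 1 pool of 2 replicates, and leaving out a replicate was not possible for the same reason. The ChIP-seq depth is unknown, so a missing peak does not show absent binding.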

Other observations

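New and lost C/EBPβ peaks were spread over the genome. On the 19 autosomes, the share of prednisolone peaks that were new lay between 20.2% on chromosome 12 and 25.2% on chromosome 14, and the share of 6am peaks that were lost between 18.6% on chromosome 9 and 23.6% on chromosome 16. On the X chromosome 24.3% (19.6 to 29.8) of 267 prednisolone peaks were new and 26.8% (21.9 to 32.3) of 276 6am peaks were lost.

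Some one-list peaks lay in local runs, taken as one-list peaks of the same list with no more than 10 kb between neighbours. With single peaks counted as runs, 16 of 4339 runs of new peaks and 20 of 3941 runs of lost peaks held at least 4 peaks. The run with the most new peaks, at chr3:52321811-52348224, held 6 new of 8 prednisolone C/EBPβ peaks over 26.4 kb, with 4 GR peaks after prednisolone and 1 at 6am. A run at chr10:80445191-80457779 held 5 new peaks, all of the C/EBPβ peaks inside it, with 3 GR peaks after prednisolone and none at 6am, and 1 of the 5 was listed for C/EBPβ at 6pm. Another run of 5 new peaks, at chr12:16584290-16615486, held 1 GR peak in each state. Runs of 6 lost peaks lay at chr14:77211717-77236402 and chr14:63779705-63796965, and all 6 peaks of each were listed at 6pm. The first of these 2 runs held 2 GR peaks at 6am and 1 after prednisolone, and the second held no GR peak in either state. These runs were picked after their values were seen.

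GR lists of livers with the GRdim mutation, which is known to impair dimerization of the receptor, were set beside the WT C/EBPβ groups. Of the 338 new C/EBPβ peaks with a WT GR peak after prednisolone, 50 overlapped a GRdim GR peak of prednisolone (14.8%, 11.4 to 19.0), against 1756 of the 2918 kept ones (60.2%, 58.4 to 61.9). The GRdim GR lists of 6am and 6pm covered 7.40% and 18.0% of the new peaks, against 58.1% and 81.9% of the kept ones. A WT GR peak of 6am overlapped 94 of the 338 new and 2422 of the 2918 kept ones. The gap was thus not particular to the GRdim lists. Of the 821 lost peaks with a WT GR peak at 6am, 350 overlapped a GRdim GR peak of 6am (42.6%, 39.3 to 46.0), against 2075 of the 3788 kept ones (54.8%, 53.2 to 56.4). The GRdim GR lists of prednisolone and 6pm covered 26.8% and 68.3% of these lost peaks, against 50.9% and 84.0% of the kept ones. The GRdim lists are shorter than those of WT, and C/EBPβ in GRdim livers was not analysed here.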
